A study of Mus musculus with 56 samples.

Results

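The genes described here encode the proteins of the mitochondrial ribosome. They were taken as every mouse gene whose symbol begins with Mrpl or Mrps followed by a digit, with symbols marked as pseudogenes (-ps) left out. This gave 77 of the 43629 genes in the deposited count tables, 48 named for the large subunit (Mrpl) and 29 named for the small subunit (Mrps). The rule used symbols alone and no measured value. The annotation holds 78 such genes; Mrpl33, the remaining one, was not analysed here. The members lie on 17 chromosomes.

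The libraries came from spinal cord of mice aged 9 or 14 weeks, labelled as cervical cord, and the study describes the animals as female. Every mouse, controls included, carried the Chat bacTRAP transgene (line DW167 DW167Htz/J), which places an EGFP-tagged ribosomal protein L10a in cells that use the Chat gene, the cholinergic cells that include motor neurons. Chat bacTRAP mice had no further transgene, A315T mice also carried TDP-43A315T (line 95Balo/J), and hTDP-43 WT mice also carried TDP-43WT (line 3cPtrc/J). Both human TDP-43 transgenes are driven by the prion promoter, so they act in more cells than motor neurons, and each genotype was represented by 1 transgenic line. In MN-TRAP (translating ribosome affinity purification), tagged ribosomes and their mRNAs are pulled down from the lysate; SC is RNA of the whole lysate. There were 25 MN-TRAP and 31 SC libraries. At 9 weeks these were 4 MN-TRAP and 6 SC for Chat bacTRAP, 3 and 6 for hTDP-43 WT, and 5 and 5 for A315T. At 14 weeks they were 4 and 5 for Chat bacTRAP, 5 and 5 for hTDP-43 WT, and 4 and 4 for A315T.

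The mitochondrial ribosome translates the few mRNAs that the mitochondrial genome encodes, all of them for subunits of the oxidative phosphorylation complexes. Its rRNAs come from the mitochondrial genome, whereas its proteins are encoded in the nucleus, translated on cytosolic ribosomes and imported. MN-TRAP therefore captures the mRNAs of the mitochondrial ribosomal proteins on cytosolic ribosomes and does not purify the mitochondrial ribosome itself. The small subunit decodes the mRNA, and the large subunit joins amino acids and holds the exit tunnel of the new peptide. Motor neurons are large cells with long axons and a high demand for ATP. A few symbols are historical: in structures of the mammalian mitochondrial ribosome, the products of Mrps18a and Mrps30 sit in the large subunit, and the product of Mrps36 has since been assigned to the 2-oxoglutarate dehydrogenase complex. They are grouped here by symbol.

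The start regions of these genes are shown because nuclear genes for mitochondrial proteins are known to share motifs for the factors NRF1, ETS (GABP) and YY1. RefSeq promoters of build GRCm38.p6, covering 250 bases before to 50 bases after the start, were found for 68 of the 77 members. Matches were searched on both strands for TGCGCATGC (NRF1 core), CCGGAAGT (ETS core) and AAGATGGCG (YY1 core); no motif contains another. The NRF1 core was in 6 members' promoters (8.82%, against 2.9% of 13363 promoters of the genes tested below), the ETS core in 11 (16.2% against 7.4%) and the YY1 core in 8 (11.8% against 2.81%). At least 1 of the 3 was in 24 members (35.3%, against 12.4% of the genes tested and 7.32% of all 27025 promoters), 16 of 42 large subunit and 8 of 26 small subunit genes. The corresponding share was 25.8% of the promoters of nuclear oxidative phosphorylation subunits and 28.0% of those of cytosolic ribosomal proteins. The next 6 sequences are the 120 bases just before the start, read 5′ to 3′ on the gene's strand, of the members with the largest MN-TRAP over SC change among those with a match there, 2 for each motif. Capitals mark the match (for Mrpl36 and Mrps11 the YY1 core on the opposite strand, and in Mrpl32 a pair of NRF1 matches overlaps, 1 on each strand).
Mrpl32: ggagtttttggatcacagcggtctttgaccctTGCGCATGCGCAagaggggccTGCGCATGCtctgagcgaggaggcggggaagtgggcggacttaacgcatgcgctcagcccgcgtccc
Mrpl22: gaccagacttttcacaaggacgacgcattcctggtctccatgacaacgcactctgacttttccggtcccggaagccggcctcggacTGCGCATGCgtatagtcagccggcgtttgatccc
Mrpl51: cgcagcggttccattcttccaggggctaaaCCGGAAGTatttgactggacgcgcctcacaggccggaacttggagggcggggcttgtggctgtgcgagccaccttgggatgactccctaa
Mrpl27: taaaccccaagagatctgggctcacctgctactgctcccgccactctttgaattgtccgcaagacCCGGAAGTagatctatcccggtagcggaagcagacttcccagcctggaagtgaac
Mrpl36: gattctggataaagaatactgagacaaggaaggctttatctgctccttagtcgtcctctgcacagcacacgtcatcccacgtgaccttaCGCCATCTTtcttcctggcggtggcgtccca
Mrps11: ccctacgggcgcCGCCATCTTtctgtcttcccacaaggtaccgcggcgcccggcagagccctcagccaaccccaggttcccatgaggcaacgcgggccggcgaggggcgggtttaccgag
Their positions were chr13:14613038-14613157 on the minus strand for Mrpl32, and on the plus strand chr11:58171544-58171663 for Mrpl22, chr6:125192080-125192199 for Mrpl51, chr11:94653671-94653790 for Mrpl27, chr13:73330889-73331008 for Mrpl36 and chr7:78783011-78783130 for Mrps11. For the YY1 core, only Mrpl36 and Mrps11 had a match in the stretch shown. The other YY1 matches began at positions 12 to 37 counted from the start. A match is a description of the letters and not evidence of a bound factor. The median log2 change of MN-TRAP over SC was 0.94 for the 24 members with a match and 0.94 for the 43 tested members with a promoter and no match.

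The libraries held 17.5 to 86.7 megacounts (M; median 40.4) for SC and 0.472 to 255.8 M (median 19.6) for MN-TRAP, and 4 MN-TRAP libraries were under 5 M. The motor neuron markers Chat, Slc18a3, Slc5a7, Mnx1, Isl1, Isl2 and Prph were all higher in MN-TRAP than in SC, with a median log2 change of 3.20, and their summed level was 1898.3 to 7970.3 CPM (counts scaled to the library total) in MN-TRAP and 305.2 to 604.0 CPM in SC. All 8 oligodendrocyte markers were lower in MN-TRAP (median log2 change -2.38), as were all 6 astrocyte, all 5 microglial, all 5 endothelial and 4 of 5 skeletal muscle markers. The summed oligodendrocyte level was 16412.1 to 27207.3 CPM in SC and 1638.4 to 22813.1 CPM in MN-TRAP. It stood at 22813.1, 19783.2 and 18957.7 CPM, within the SC range, in hTDP-43 WT 14-week replicate 2, Chat bacTRAP 14-week replicate 1 and Chat bacTRAP 9-week replicate 2. Reads of Lamr1-ps1 were scaled to the plain library total, without TMM. They were at 0.48 to 2.93 CPM in every A315T library and at most 0.0398 CPM in 35 of the 38 control libraries. The other 3 control libraries had 1.11 to 1.69 CPM and thus went against their labels in this marker (hTDP-43 WT 14-week replicate 5, hTDP-43 WT 9-week replicate 3 and Chat bacTRAP 9-week replicate 4, all MN-TRAP). The study kept a part of each lysate as SC before the pulldown, so MN-TRAP and SC libraries come from the same animals. The labels do not say which library goes with which, the model treated the fractions as independent, and p-values measure the spread between libraries.

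Together, the mRNAs of the mitochondrial ribosome had a higher summed level, in TMM-scaled CPM, in MN-TRAP than in SC. The 77 members summed to a median of 6609.8 CPM over the 25 MN-TRAP libraries (4803.8 to 10004.9) and 3287.7 CPM over the 31 SC libraries (2502.6 to 5237.0). Large subunit genes had medians of 4377.4 CPM in MN-TRAP and 2182.8 CPM in SC, and small subunit genes 2209.7 and 1118.1 CPM. The ratio of the large to the small subunit sum was 1.83 to 2.01 in SC and 1.84 to 2.47 in MN-TRAP. On this scale the lowest MN-TRAP sums, 4803.8, 5312.3 and 5369.8 CPM, were those of the 3 libraries with the most oligodendrocyte RNA. In bulk RNA of this kind, fewer cells of a type and less RNA per cell cannot be told apart.

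**Figure D1:**
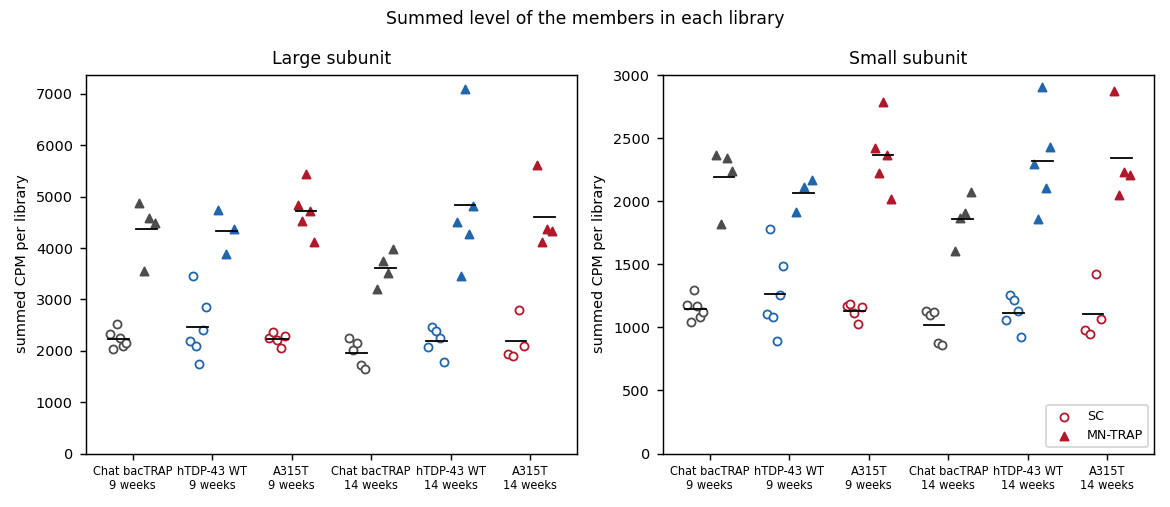
Summed level of the large subunit (left) and small subunit (right) members in each library, in CPM, by genotype and age. Open circles are SC, filled triangles MN-TRAP, and bars group means; over both subunits the MN-TRAP libraries had a median of 6609.8 CPM and the SC libraries 3287.7 CPM.

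Each gene was compared between MN-TRAP and SC as the mean of the 6 genotype and age groups, with edgeR's quasi-likelihood test on the counts and Benjamini-Hochberg adjustment over all 18838 genes tested. A gene passed at an adjusted p below 0.05. Of 77 members, 76 had enough counts to be tested, 47 large and all 29 small. Of these, 71 were higher in MN-TRAP (44 large and 27 small), 1 was lower (Mrpl23), and 4 did not pass; 31.6% of all genes tested were higher. The median log2 change was 0.97 for the large subunit and 0.75 for the small subunit, against -0.17 for all genes. At least a 2-fold rise was found for 34 members (22 large and 12 small), and for 10.4% of all genes. With 62 members higher and 4 lower, the count was smaller when libraries were scaled to total counts alone, which moved the median of all genes from -0.17 to -0.45. Of all genes, 21.7% were higher and 55.3% lower under that scaling. Without the 3 libraries rich in oligodendrocyte RNA, 71 members were higher and none lower, with a median of 0.97, where all 76 gave 0.92 with every library kept. The share of all genes for that fit is not given here. Without the 3 control libraries with Lamr1-ps1 reads, 69 were higher and 1 lower, where 26.8% of all genes were higher.

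**Figure D2:**
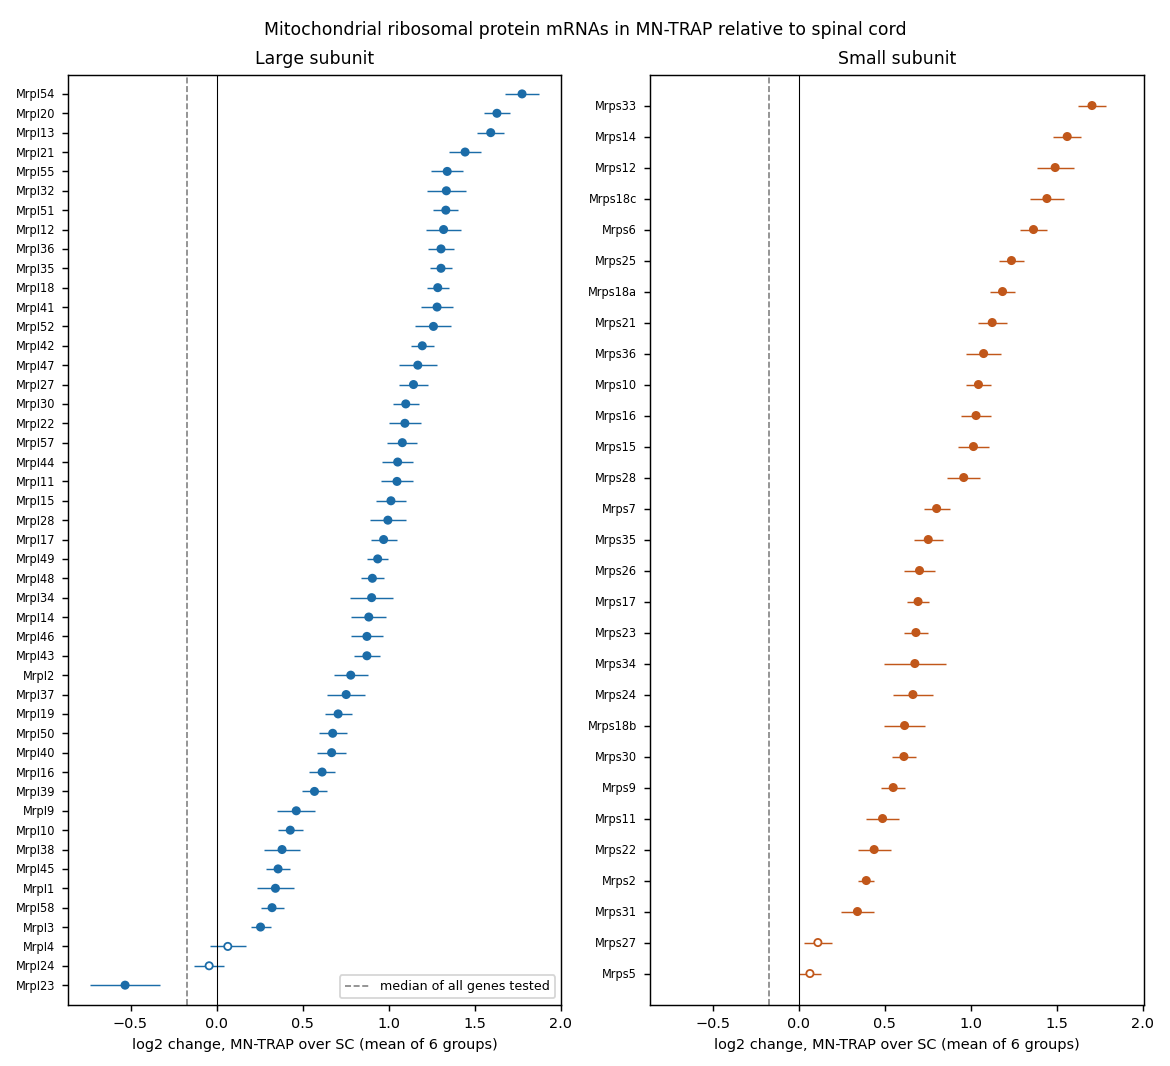
Log2 change of each tested member in MN-TRAP over SC, mean of the 6 genotype and age groups, with its standard error, for the large subunit (left, 47 genes) and the small subunit (right, 29 genes). Filled points passed at an adjusted p below 0.05 and open points did not; the dashed line is the median of all genes tested, at -0.17, and all but Mrpl23 and Mrpl24 lie to the right of 0.

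In the large subunit, Mrpl54 showed the largest rise. It encodes a protein of the mitochondrial ribosome with no bacterial counterpart. Its normalised count (counts divided by the library's size factor, as deposited) was 1995.4 to 4729.4 in MN-TRAP with a median of 2805.2, and 559.0 to 1759.8 in SC with a median of 990.1. No SC library reached the lowest MN-TRAP library. The rise was 3.42-fold (log2 change 1.78, SE 0.098, adjusted p by edgeR 8.64e-23). Mrpl20, the homologue of a bacterial protein needed early in assembly of the large subunit, had a normalised count of 4101.6 to 10454.8 in MN-TRAP (median 5726.9) and 1560.4 to 2973.0 in SC (median 2057.3). Again the fractions did not overlap (log2 change 1.63, SE 0.073). Mrpl13, a homologue of bacterial L13, was at 3971.9 to 11222.5 in MN-TRAP (median 5578.3) and 1362.8 to 3244.9 in SC (median 1860.8), a log2 change of 1.59 (SE 0.079). Mrpl21, a homologue of bacterial L21, rose by a log2 change of 1.45 (SE 0.095), and 23 of its 25 MN-TRAP libraries were above every SC library.

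In the small subunit, Mrps33, which encodes another protein particular to mitochondria, rose most. Its normalised count was 510.2 to 1759.7 in MN-TRAP with a median of 1079.5, and 258.2 to 486.2 in SC with a median of 372.1, so that the fractions did not overlap. The rise was 3.26-fold (log2 change 1.71, SE 0.081, adjusted p by edgeR 9.99e-26). Mrps14, a homologue of bacterial S14 in the head of the subunit, was at 2598.3 to 12810.3 in MN-TRAP (median 4248.4) and 1166.2 to 2119.0 in SC (median 1524.7), a log2 change of 1.56 (SE 0.083). Mrps12, the homologue of the bacterial decoding-centre protein that streptomycin resistance mutations hit, was at 3094.2 to 8188.7 in MN-TRAP (median 4281.0) and 965.4 to 3035.1 in SC (median 1774.1). Its highest SC library lay just below its lowest MN-TRAP library (log2 change 1.49, SE 0.11). Mrps18c, a homologue of bacterial S18, rose by 1.44 (SE 0.098), with 23 of 25 MN-TRAP libraries above every SC library; 23.2% of its exon bases are shared with Gm43511, and counts of the overlap cannot be assigned to either.

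All 25 MN-TRAP libraries lay above all 31 SC libraries for 6 of the 47 large subunit genes (Mrpl13, Mrpl18, Mrpl20, Mrpl35, Mrpl42 and Mrpl54) and 5 of the 29 small subunit genes (Mrps10, Mrps12, Mrps14, Mrps18a and Mrps33). This held for 2.53% of all genes tested. The spread within groups was wider in MN-TRAP than in SC: the SD of log2 values had a median over members of 0.377 in MN-TRAP and 0.237 in SC, and was largest for Mrpl23 (1.3) in MN-TRAP and for Mrps34 (0.536) in SC. The highest value of the 25 MN-TRAP libraries fell in hTDP-43 WT 14-week replicate 3 for 23 members, in hTDP-43 WT 9-week replicate 1 for 14, and in A315T 14-week replicate 1 and A315T 9-week replicate 3 for 13 each. The lowest fell in Chat bacTRAP 14-week replicate 1, a library rich in oligodendrocyte RNA, for 22 members.

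**Figure D3:**
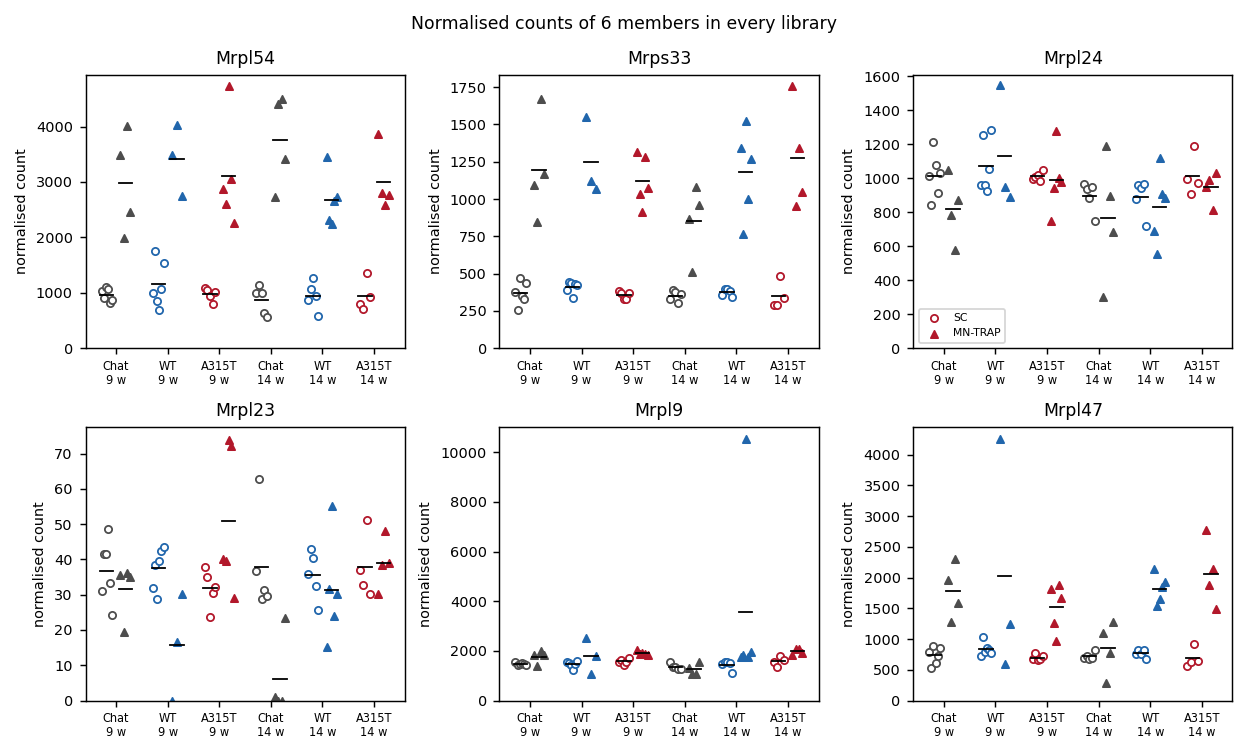
Normalised counts of 6 members in every library, by genotype (Chat, Chat bacTRAP; WT, hTDP-43 WT; A315T) and age in weeks. Open circles are SC and filled triangles MN-TRAP, and bars group means; Mrpl54 and Mrps33 show no overlap of the fractions, Mrpl24 overlaps throughout, Mrpl23 is at 0 to 73.9 in MN-TRAP, and 1 hTDP-43 WT 14-week library stands at 10551.4 for Mrpl9.

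The members outside this pattern were few. Mrpl24, the homologue of a bacterial protein that starts assembly of the large subunit, had a normalised count of 303.1 to 1547.5 in MN-TRAP (median 906.0) and 718.1 to 1283.6 in SC (median 968.8). The fractions overlapped (log2 change -0.04, SE 0.085, adjusted p by edgeR 0.659), and its mean was higher in MN-TRAP in 1 of the 6 genotype and age groups. Mrpl4, a homologue of a bacterial protein that lines the exit tunnel, had medians of 1431.4 and 1468.4 (log2 change 0.07, adjusted p by edgeR 0.578). Mrps5, a homologue of a bacterial protein near the mRNA entrance, had medians of 1263.3 and 1272.8 (log2 change 0.07, adjusted p by edgeR 0.357). Mrps27, a pentatricopeptide repeat protein, had medians of 794.3 and 810.3 (log2 change 0.11, adjusted p by edgeR 0.215). Mrpl24 shares 26.3% of its exon bases with Rrnad1, and Mrps27 shares 24.2% with 6430562O15Rik. Counts of these overlaps cannot be assigned. By group means, 68 members were higher in MN-TRAP in all 6 genotype and age groups.

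Mrpl23, the homologue of a bacterial protein at the rim of the exit tunnel, lies at chr7:142532686-142540747 on the plus strand (GRCm38) and was by far the least abundant member that was tested, with 2865 reads in all 56 libraries. Its normalised count was 0 to 73.9 in MN-TRAP (median 30.3) and 23.6 to 62.9 in SC (median 35.1). The log2 change was -0.53 (SE 0.20, adjusted p by edgeR 0.0151), and 2 MN-TRAP libraries lay above every SC library. It was -1.70 (SE 0.40) in Chat bacTRAP mice, -0.38 (SE 0.34, adjusted p by edgeR 0.346) in hTDP-43 WT mice and 0.48 (SE 0.30, adjusted p by edgeR 0.162) in A315T mice. The call over all groups was lost without the 3 libraries rich in oligodendrocyte RNA (log2 change -0.39, adjusted p by edgeR 0.072). Mrpl53 held 51 reads in 56 libraries and was too low to test; 88.0% of its exon bases are shared with other genes, Gm42688 and Ccdc142os.

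Within single genotypes, 69 members were higher in MN-TRAP and none lower in A315T mice, where 28.7% of all genes were higher. In hTDP-43 WT mice 64 were higher and none lower (24.6% of all genes higher), and 59 were higher and 1 lower without the libraries with Lamr1-ps1 reads (20.5% of all genes higher). In Chat bacTRAP mice 64 were higher and 1, Mrpl23, lower (23.6% of all genes higher). The median over members of the ratio of mean normalised counts, MN-TRAP to SC, was 1.84 in A315T mice at 9 weeks and 1.86 at 14 weeks, 1.65 and 1.88 in hTDP-43 WT mice, and 1.73 and 1.68 in Chat bacTRAP mice. The number of members with no overlap of the fractions within a group was lowest, 27, in hTDP-43 WT mice at 9 weeks, which had 3 MN-TRAP libraries, and highest, 62, in A315T mice at 9 weeks. The same held for 9.14% and 18.2% of all genes. In the other groups it held for 53 members in A315T mice at 14 weeks (18.5% of all genes), 48 in hTDP-43 WT mice at 14 weeks (11.9%), and 51 and 42 in Chat bacTRAP mice at 9 and 14 weeks (12.7% and 8.98%). The groups differ in their number of libraries, on which such counts depend.

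On a scale that allows genes to be compared, CPM per kilobase of the union of a gene's exons, the members spanned a wide range. The median over MN-TRAP libraries was highest in the small subunit for Mrps12 (163 CPM per kilobase; 115 to 317.8), Mrps21 (133; 82.5 to 196.9) and Mrps6 (83.7; 52.7 to 150.5). In the large subunit it was highest for Mrpl41 (139 CPM per kilobase; 59.2 to 296.8), Mrpl54 (134; 95.1 to 231.4) and Mrpl20 (132; 95.6 to 235.9). The ranges of the first genes in this order overlapped, so that neighbours did not separate beyond their spread. The lowest of the small subunit were Mrps30 (5.29) and Mrps35 (5.0), and the lowest of the large subunit Mrpl23 (0.246) and Mrpl53 (0). The order depended on the length used. Per kilobase of the principal transcript, Mrps21 (200.7), Mrps12 (192.0) and Mrps18a (165.8) led the small subunit and Mrpl20 (288.2), Mrpl42 (245.0) and Mrpl52 (216.5) the large subunit, with Mrpl41 (159.0) in place 6, while the lowest genes of each subunit stayed the same. Per kilobase of exon union, SC medians were 62.1 for Mrps12, 56.5 for Mrps21, 32.2 for Mrps6, 55.0 for Mrpl41, 42.5 for Mrpl54 and 43.8 for Mrpl20. Mrps6 shares 19.9% of its exon bases with Gm49711 and Slc5a3. Members had a median exon length of 2394 bases, against 3818 for all genes tested, and length moved with the change between the fractions: among all genes the median log2 change fell from 0.06 in the shortest quartile to -0.36 in the longest. The median of the members was 1.02, 0.57, 0.71 and 0.91 from the shortest to the longest quartile, and 36 of 37, 15 of 17, 10 of 11 and 10 of 11 of them were higher in MN-TRAP. Of all genes in the same quartiles, 37.4%, 36.4%, 29.9% and 23.0% were higher.

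A set of 13 members are genes whose human counterparts are known for mitochondrial disease, in which the heart, liver and nervous system are often affected. Of these 13, 12 were higher in MN-TRAP and none lower, with a median log2 change of 0.80. Of all genes tested, 31.6% were higher. The rise was not particular to this set, since most other members were higher as well. The exception among the 13 was Mrpl24, described above. The small subunit genes ran from Mrps14 (1.56) and Mrps25 (1.24, SE 0.075) through Mrps16 (1.03), Mrps28 (0.96), Mrps7 (0.80), Mrps23 (0.68) and Mrps34 (0.68, SE 0.18) to Mrps22 (0.44) and Mrps2 (0.39). In the large subunit, Mrpl12, which forms the stalk that recruits translation factors, rose by 1.32 (SE 0.10), Mrpl44, a ribonuclease III-like protein, by 1.05 (SE 0.091), and Mrpl3, a protein near the peptidyl transferase centre, by 0.26 (SE 0.058), a change that turned to -0.011 under scaling to total counts alone. Under that scaling Mrps22 did not pass (0.17, adjusted p by edgeR 0.126) and Mrpl24 was lower (-0.32, adjusted p by edgeR 0.000508). Mrps34 shares 77.8% of its exon bases with Mapk8ip3 and Nme3, and Mrps25 shares 69.8% with Nr2c2; the library kit does not mark strand, so reads of these overlaps cannot be assigned. The 3 paralogues of bacterial S18 all rose: Mrps18c by 1.44, Mrps18a by 1.19 (SE 0.075) and Mrps18b by 0.62 (SE 0.12). Of these, Mrps18a did not overlap between the fractions (2865.2 to 6378.9 in MN-TRAP, 1212.9 to 2730.4 in SC). Mrps18b shares 30.5% of its exon bases with Gm16279. Mrps36 rose by 1.08 (SE 0.10).

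Beside the mitochondrial ribosomal proteins, other gene lists of the mitochondrial and cytosolic translation systems were measured in the same comparison. Of 86 nuclear subunits of oxidative phosphorylation, 74 were higher in MN-TRAP and 4 lower (median log2 change 1.27). Of 97 genes with symbols of cytosolic ribosomal proteins, 69 were higher and 5 lower (median 0.61). Of 5 mitochondrial ribosomal proteins under other symbols, 4 were higher and none lower (median 0.51). Genes that act on the mitochondrial ribosome had medians closer to 0. Of 27 factors of its assembly, 16 were higher and 4 lower (median 0.29), of 16 mitochondrial translation factors 7 were higher and 2 lower (median 0.23), and of 20 mitochondrial aminoacyl-tRNA synthetases 6 were higher and 4 lower (median 0.11). The RNA products of the mitochondrial genome went the other way. Both mitochondrial rRNAs were lower in MN-TRAP (median -1.55), as were all 8 mitochondrially encoded mRNAs tested (median -2.25). Differences between lists were not tested.

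**Figure D4:**
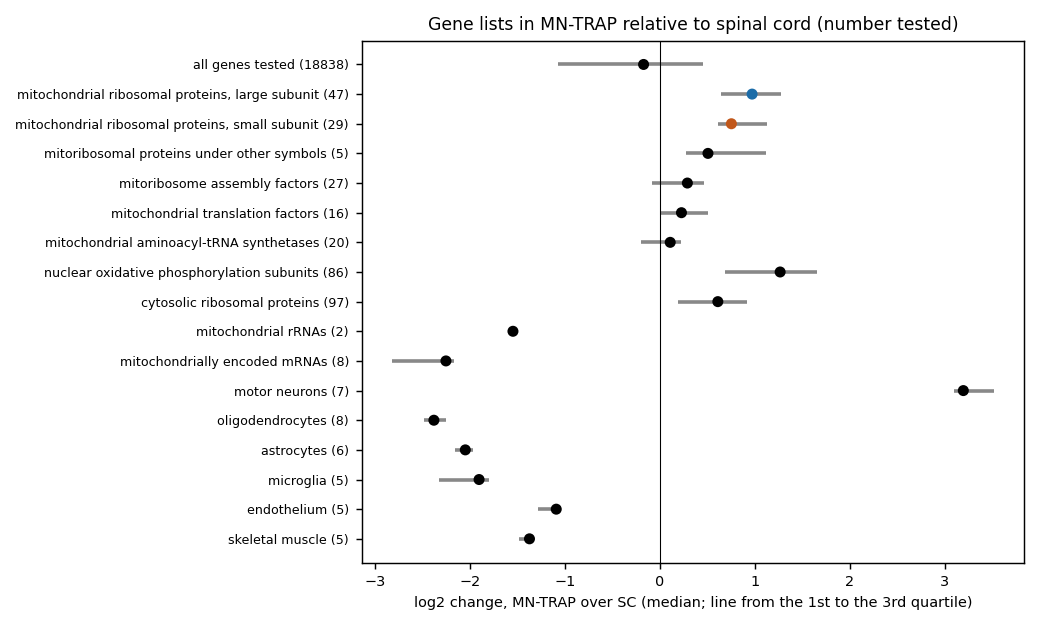
Median log2 change in MN-TRAP over SC for the members of each subunit, for related gene lists and for cell type markers, with a line from the first to the third quartile and the number of genes tested in parentheses. The large and small subunit medians, 0.97 and 0.75, lie between those of cytosolic ribosomal proteins (0.61) and nuclear oxidative phosphorylation subunits (1.27).

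Differences between genotypes within MN-TRAP bear on whether motor neurons change their mitochondrial ribosome mRNAs before (9 weeks) or at the onset of symptoms (14 weeks) in A315T mice. The study compared A315T with both controls. At 14 weeks 15 members were higher in A315T than in Chat bacTRAP mice (8 large and 7 small) and none lower, where 7.92% of all genes were higher. The median log2 change was 0.36 for the large and 0.33 for the small subunit, against 0.09 for all genes. Against hTDP-43 WT, the control with the wild-type human protein, 1 member, Mrpl9, was lower and none higher (7.24% of all genes passed in either direction), with medians of 0.06 and 0.11 against -0.09 for all genes. Mice of the 2 control genotypes also differed: 21 members were higher in hTDP-43 WT than in Chat bacTRAP (17 large and 4 small) and none lower, where 16.1% of all genes were higher. The comparisons share samples: both differences from Chat bacTRAP rest on the same 4 Chat bacTRAP libraries.

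Named members show what these counts rest on. Mrpl23 had normalised counts of 1.1, 0, 0 and 23.3 in the 4 Chat bacTRAP libraries of 14 weeks (1, 0, 0 and 4 reads), 30.3, 38.4, 48.1 and 39.0 in A315T, and 15.2, 31.7, 55.2, 24.0 and 30.2 in hTDP-43 WT. Every A315T library was above the Chat bacTRAP libraries, and A315T and hTDP-43 WT overlapped. The log2 change was 3.46 for A315T over Chat bacTRAP (SE 0.67, adjusted p by edgeR 0.00077) and 3.14 for hTDP-43 WT over Chat bacTRAP (SE 0.66, adjusted p by edgeR 0.000936), with 5 reads in all behind the Chat bacTRAP level. Mrpl47, which encodes a protein beside the exit tunnel and shares 24.2% of its exon bases with Ndufb5 and Actl6a, was at 1104.8, 279.4, 776.2 and 1280.3 in Chat bacTRAP and at 2768.3, 1878.0, 2132.7 and 1490.0 in A315T. The groups did not overlap (log2 change 1.33, SE 0.29, adjusted p by edgeR 0.00222). It was at 2140.4, 1531.1, 1654.1, 1843.0 and 1922.9 in hTDP-43 WT, within the A315T range. Mrpl41, a large subunit protein particular to mitochondria, was at 1614.3, 1554.9, 2367.7 and 2665.4 in Chat bacTRAP and at 6666.3, 2612.1, 3365.1 and 2743.1 in A315T. Here the groups overlapped, and 1 A315T library stood well above the others (log2 change 1.02, SE 0.25, adjusted p by edgeR 0.00579). Without that library, replicate 1, the call was lost (log2 change 0.59, adjusted p by edgeR 0.0929).

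Mrpl9, the homologue of bacterial L9, was at 1767.6, 1847.7, 10551.4, 1771.1 and 1962.3 in hTDP-43 WT MN-TRAP libraries at 14 weeks, at 1822.4, 2061.2, 2089.1 and 1934.1 in A315T, and at 1313.4, 1081.1, 1081.0 and 1559.7 in Chat bacTRAP. Replicate 3 of hTDP-43 WT was more than 5 times the next library, and the other 4 lay within or just below the A315T range. Mrpl9 was lower in A315T than in hTDP-43 WT by a log2 change of -0.85 (SE 0.27, adjusted p by edgeR 0.0453) and higher in hTDP-43 WT than in Chat bacTRAP by 1.60 (SE 0.28, adjusted p by edgeR 0.000224). Without replicate 3 the difference between A315T and hTDP-43 WT turned to 0.08. Mrpl18, the homologue of the bacterial protein that binds the 5S rRNA, was at 4625.6, 3917.2, 6776.6, 3827.2 and 4012.7 in hTDP-43 WT and at 2162.3, 2441.6, 3397.7 and 3113.5 in Chat bacTRAP. These groups did not overlap (log2 change 0.85, SE 0.16, adjusted p by edgeR 0.00038).

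Other measures moved with these differences. Oligodendrocyte markers were lower in A315T than in Chat bacTRAP MN-TRAP libraries at 14 weeks for 7 of 8 genes (median log2 change -1.43), with summed levels of 1875.2 to 2662.6 CPM in A315T, 2993.6 to 19783.2 CPM in Chat bacTRAP and 2256.3 to 22813.1 CPM in hTDP-43 WT. All 8 were lower in A315T than in hTDP-43 WT (median -1.66), and none passed between hTDP-43 WT and Chat bacTRAP. Of 7 motor neuron markers, 2 were higher in A315T than in Chat bacTRAP (median 0.54) and none differed by the test from hTDP-43 WT (median 0.16). Of 8 mitochondrially encoded mRNAs, 7 were lower in A315T than in Chat bacTRAP (median -3.95) and 7 were lower than in hTDP-43 WT (median -3.68). Mitochondrially encoded genes took 0.0977% to 0.151% of the counts of the A315T libraries, 0.465% to 5.81% in Chat bacTRAP and 0.149% to 5.58% in hTDP-43 WT. The lowest hTDP-43 WT values, 0.149% and 2256.3 CPM of oligodendrocyte markers, were both those of replicate 5, the library with Lamr1-ps1 reads. The remaining hTDP-43 WT libraries had 0.484% to 5.58% and 6526.0 to 22813.1 CPM, above every A315T library. The part of these measures in the members' differences was not tested. The Chat bacTRAP group also held 2 of the shallow libraries, at 2.41 and 4.8 M counts. Among A315T and Chat bacTRAP libraries, 11 members were higher without the 3 libraries rich in oligodendrocyte RNA (5.85% of all genes) and 22 without the 4 libraries under 5 M counts (15.3% of all genes).

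The calls depended on how the spread was estimated. With the MN-TRAP libraries fitted alone, in place of all 56 libraries, no member passed in any of these 3 comparisons. For A315T against Chat bacTRAP, A315T against hTDP-43 WT and hTDP-43 WT against Chat bacTRAP, 0%, 0% and 0.00605% of all genes passed. No member passed with limma-voom and sample quality weights either, where 0%, 1.3% and 0% of all genes did. Without adjustment, 30 members had p below 0.05 in edgeR's test for A315T against Chat bacTRAP, 8 against hTDP-43 WT and 34 for hTDP-43 WT against Chat bacTRAP; of all genes, 29.4%, 22.9% and 36% did. Shares of all genes are not given for the fits that leave out 1 library, so their counts cannot be set against all genes. For A315T over Chat bacTRAP, the count went from 15 to 5 without A315T replicate 1 and to 7 without Chat bacTRAP replicate 1. For hTDP-43 WT over Chat bacTRAP, it went from 21 to 11 without hTDP-43 WT replicate 3, to 12 without Chat bacTRAP replicate 1 and to 13 without Chat bacTRAP replicate 3. For A315T against hTDP-43 WT, it went from 1 to 0 without hTDP-43 WT replicate 3 or any A315T library, to 2 without hTDP-43 WT replicate 1, 2 or 4 and to 5 without hTDP-43 WT replicate 5, a library with Lamr1-ps1 reads. Without all 3 control libraries with such reads, 5 passed (15.7% of all genes), and 20 passed for hTDP-43 WT over Chat bacTRAP (23.2% of all genes).

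**Figure D5:**
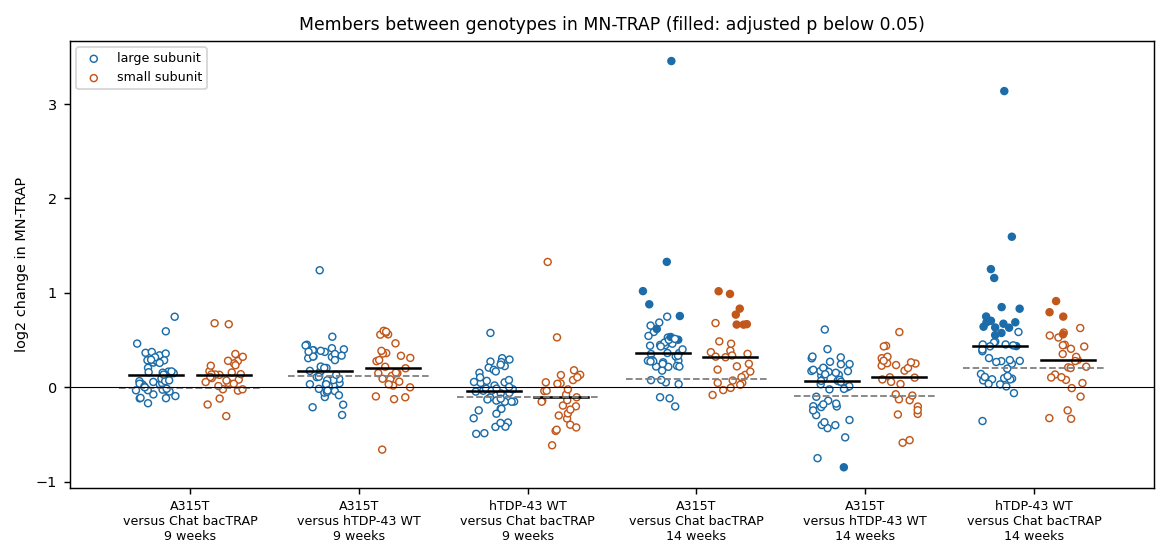
Log2 change of every tested member between genotypes within MN-TRAP at 9 and 14 weeks, with large and small subunit members apart. Filled points passed at an adjusted p below 0.05, short black lines are medians of the members and dashed grey lines medians of all genes; at 14 weeks 15 and 21 members passed in the comparisons with Chat bacTRAP, and none at 9 weeks.

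At 9 weeks no member passed between genotypes in MN-TRAP by edgeR. For A315T against Chat bacTRAP, 0.552% of all genes passed and 4 members (12% of all genes) had an unadjusted p below 0.05; DESeq2 and limma-voom also gave 0 members. For A315T against hTDP-43 WT, 2.27% of all genes passed, 9 members (15.6% of all genes) had an unadjusted p below 0.05, and DESeq2 gave 1 member and limma-voom 0. For hTDP-43 WT against Chat bacTRAP, 0.223% of all genes passed, 4 members (13.4% of all genes) had an unadjusted p below 0.05, and both other tools gave 0. The smallest p values belonged to Mrpl22, a homologue of a bacterial exit tunnel protein, at a log2 change of 0.59 for A315T over Chat bacTRAP (SE 0.23, adjusted p by edgeR 0.262), and to Mrps5 at 0.59 for A315T over hTDP-43 WT (SE 0.18, adjusted p by edgeR 0.0709). For hTDP-43 WT over Chat bacTRAP they belonged to Mrps30 at -0.61 (adjusted p by edgeR 0.19) and Mrps2 at -0.40 (adjusted p by edgeR 0.19). Without the 3 control libraries that held Lamr1-ps1 reads, 2, 7 and 4 members passed in these comparisons, where 4.99%, 18.2% and 9.74% of all genes did, and without hTDP-43 WT replicate 3, which is 1 of those libraries, 6 passed in each of the last 2. Without Chat bacTRAP replicate 4, another of them, 2 passed for A315T against Chat bacTRAP. Among those that passed without the 3 libraries were Mrpl22 for A315T over Chat bacTRAP (log2 change 0.89, adjusted p by edgeR 0.0201), and Mrps5 (0.99, adjusted p by edgeR 0.000159) and Mrps30 (0.85, adjusted p by edgeR 0.0137) for A315T over hTDP-43 WT. For hTDP-43 WT over Chat bacTRAP they included Mrps30 (-0.80, adjusted p by edgeR 0.0429) and Mrps2 (-0.50, adjusted p by edgeR 0.0437).

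In SC no member passed between genotypes at either age by edgeR. At 14 weeks 0.0212%, 0.0265% and 0.00531% of all genes passed for A315T against Chat bacTRAP, A315T against hTDP-43 WT and hTDP-43 WT against Chat bacTRAP, and no member had an unadjusted p below 0.05. At 9 weeks 0.0425%, 0.0212% and 0% of all genes passed, and 0, 3 and 0 members had an unadjusted p below 0.05. With limma-voom and sample quality weights, 8 and 18 members passed at 14 weeks for A315T against Chat bacTRAP and hTDP-43 WT, where 17.7% and 17.9% of all genes did, and 1 and 12 at 9 weeks, where 9.96% and 26.7% did.

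Between 9 and 14 weeks, no member passed in A315T MN-TRAP by edgeR, where 0.0106% of all genes did and 1 member had an unadjusted p below 0.05. In hTDP-43 WT MN-TRAP, 5 members were higher at 14 weeks, where 6.08% of all genes were higher, and 1 was lower. Mrpl32, whose product is cleaved by a mitochondrial protease before it joins the large subunit, was at 1805.4, 339.5 and 1153.8 at 9 weeks and at 1444.2, 1670.4, 5683.0, 1741.4 and 1560.8 at 14 weeks. The ages overlapped, with replicate 2 low at 9 weeks and replicate 3 high at 14 weeks (log2 change 1.39, SE 0.33, adjusted p by edgeR 0.00787). Mrps30 was at 902.7, 371.2 and 683.7 at 9 weeks and 1065.1, 794.8, 994.1, 983.6 and 1004.5 at 14 weeks, again with overlap and with replicate 2 low (log2 change 0.76, SE 0.20, adjusted p by edgeR 0.0142). Mrpl9, at 2514.7, 1057.1 and 1810.8 at 9 weeks, passed as well (log2 change 1.138, SE 0.32, adjusted p by edgeR 0.0194). Its 14-week values, given above, lay within the 9-week range but for the 10551.4 of replicate 3, and the call was lost without that library (log2 change 0.22, adjusted p by edgeR 0.384). Mrps34, in the small subunit, went the other way, at 386.9, 2929.9 and 918.7 at 9 weeks and 308.1, 235.9, 359.0, 426.2 and 463.5 at 14 weeks (log2 change -2.06, SE 0.48, adjusted p by edgeR 0.0067), with overlap and with replicate 2 high at 9 weeks. Without 9-week replicate 2 no member passed. Without the libraries with Lamr1-ps1 reads 10 members passed, where 23.5% of all genes did. Without 14-week replicate 3 there were 3, and without 9-week replicate 1 (0.472 M counts) or replicate 3 (Lamr1-ps1 reads) there were 11.

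In Chat bacTRAP MN-TRAP, 3 members were lower at 14 than at 9 weeks, where 6.28% of all genes passed in either direction. Mrpl23 was at 35.6, 19.5, 36.1 and 34.9 at 9 weeks and at 1.1, 0, 0 and 23.3 at 14 weeks, overlapping through 1 library at each age (log2 change -3.15, SE 0.68, adjusted p by edgeR 0.00351). Mrpl39, a large subunit protein related to threonyl-tRNA synthetases, was at 2065.4, 1440.5, 1673.7 and 1602.5 and then at 675.4, 765.3, 1396.3 and 1420.0, with no overlap (log2 change -0.77, SE 0.20, adjusted p by edgeR 0.0153). Mrpl47 was at 1954.3, 1278.0, 2299.9 and 1591.0 at 9 weeks, and its highest 14-week library (1280.3) just passed the lowest of these (log2 change -1.09, SE 0.29, adjusted p by edgeR 0.0176). The lowest 14-week values of Mrpl39 were in replicates 1 and 2, which were the library rich in oligodendrocyte RNA and the library of 2.41 M counts. The call for Mrpl39 was lost without 14-week replicate 1 (adjusted p by edgeR 0.0671), 14-week replicate 2 (0.0514), 9-week replicate 1 (0.0533) or the libraries rich in oligodendrocyte RNA (0.0529). That for Mrpl47 was lost without 14-week replicate 2 (adjusted p by edgeR 0.0609) or replicate 3 (0.0556). Without the 4 libraries under 5 M counts, 14 members passed, where 17.9% of all genes did. Leaving out single libraries gave 2 without 9-week replicate 1, 5 without 14-week replicate 2, 11 without 14-week replicate 4 and 9 without 9-week replicate 2. In SC no member passed between ages in any genotype by edgeR, where 0% of all genes passed in each; 0, 2 and 0 members had an unadjusted p below 0.05 in A315T, hTDP-43 WT and Chat bacTRAP.

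The difference in MN-TRAP over SC between genotypes was tested directly, with both ages weighing equally. Between A315T and Chat bacTRAP it passed for 1 member, Mrpl23 (log2 difference 2.18, SE 0.50, adjusted p by edgeR 0.0237), where 0.69% of all genes passed. The underlying changes were 0.48 in A315T and -1.70 in Chat bacTRAP. Next was Mrpl35, a homologue of bacterial L35, at 0.49 (SE 0.16, adjusted p by edgeR 0.106). The call for Mrpl23 was lost without the 3 libraries rich in oligodendrocyte RNA, and also without Chat bacTRAP 14-week replicate 1 or 9-week replicate 2 alone. It was also lost with limma-voom (adjusted p 0.168). With genotype, age and replicate number together as a block it was lost too (adjusted p by edgeR 0.828), and 0% of all genes passed there. Without 14-week replicate 4 or 9-week replicate 4 of Chat bacTRAP, 2 members passed, and without the 3 control libraries with Lamr1-ps1 reads 3 did (3.9% of all genes). Between A315T and hTDP-43 WT no member passed by edgeR, where 0.648% of all genes did, and 10 members (11.9% of all genes) had an unadjusted p below 0.05. Mrpl22 (0.69, SE 0.23, adjusted p by edgeR 0.153) and Mrps17, a homologue of bacterial S17 (0.48, SE 0.16, adjusted p by edgeR 0.16), had the smallest p values. DESeq2 and limma-voom gave 0 members for the difference from hTDP-43 WT. Without hTDP-43 WT 9-week MN-TRAP replicate 3 there were 4, and without all 3 control libraries with Lamr1-ps1 reads 6 (10.9% of all genes), Mrpl22 among them (0.83, adjusted p by edgeR 0.0161).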

How the data were processed

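RNA-seq libraries of MN-TRAP and SC RNA were made with a kit that does not mark strand (NEBNext Ultra, poly(A) RNA). Per the labels, the authors aligned reads to mm10 with STAR, counted reads per gene with featureCounts and normalised with DESeq2. The deposited counts are whole reads per gene. The deposited normalised counts, a signal scaled by the authors' size factor of each library, are printed per sample here. They entered no test between groups, and only the search for single libraries standing apart in single members used them.

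The members and the gene lists beside them were chosen with earlier results of these data known. Counts were tested with edgeR 4.0.16 (R 4.3.3): filterByExpr by group, TMM, a model of 12 group means over all 56 libraries, a robust quasi-likelihood F test and Benjamini-Hochberg adjustment over 18838 genes. CPM per kilobase used the union of annotated exons. Where ages were averaged, they weighed equally. Alternatives were RLE and total-count scaling, no filter, the libraries of 1 fraction alone, a replicate block, leaving out libraries, limma-voom (limma 3.58.1) with sample weights and DESeq2 1.42.0. The replicate block was the replicate number in comparisons of genotypes or ages. For MN-TRAP over SC and its differences it was genotype, age and replicate number together. The test was also run on simulated counts with known changes, drawn with the same dispersion for every gene and library. In these data MN-TRAP libraries spread more than SC libraries. The simulation cannot show how the test does in that case.

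Members were named by rule: in each subunit the 4 largest rises and falls between the fractions among those that passed; in each comparison of genotypes or ages up to 3 per direction with the smallest p, or 2 where none passed; 2 in each difference between genotypes of the MN-TRAP over SC change; the 3 highest and 2 lowest levels per length in each subunit; 13 disease genes; and Mrps18a, Mrps18b, Mrps18c and Mrps36. SC members under the rule whose adjusted p was near 1 are not listed. Mrpl4, Mrps5 and Mrps27 were named after their values were seen, as members that did not pass, and members without overlap were named for that. Gene symbols were found for 42462 of 43629 gene IDs.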

Additional observations from a re-analysis of the deposited data

Results flagged for a closer look

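Single libraries that stood apart from the rest of their group were sought by Dixon's test. They were found in 3 of 33 tests of a summed level or the ratio of the subunits in 1 group, where chance gives about 1 in 20. For single members in MN-TRAP they were found in 7 of 45 tests of 1 member in 1 group. These members were taken because they had passed between genotypes or ages in these data, and some of those calls rested on 1 library. Their rate therefore cannot be compared with chance.

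The ratio of the large to the small subunit sum was 2.45 in hTDP-43 WT 14-week MN-TRAP replicate 3, where the next library had 2.03. That library also held 10551.4 normalised counts of Mrpl9 (next 1962.3), 5683.0 of Mrpl32 (next 1741.4) and 6776.6 of Mrpl18 (next 4625.6). The ratio was 2.01 in A315T 14-week MN-TRAP replicate 2 (next 1.96) and 1.99 in Chat bacTRAP 9-week SC replicate 1 (next 1.94).

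Mrpl23 was at 23.3 normalised counts in Chat bacTRAP 14-week MN-TRAP replicate 4, with 1.1 in the next library, and at 19.5 in Chat bacTRAP 9-week MN-TRAP replicate 2, a library rich in oligodendrocyte RNA, with 34.9 in the next. Mrpl39 was at 1103.6 in hTDP-43 WT 14-week MN-TRAP replicate 2, also rich in oligodendrocyte RNA, with 1560.8 in the next. Mrps34 was at 2432.3 in A315T 9-week MN-TRAP replicate 3, with 772.8 in the next.

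The change of Mrpl23 in MN-TRAP over SC differed between A315T and Chat bacTRAP mice by 2.18 on the log2 scale (adjusted p by edgeR 0.0237).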

How the results depend on the processing

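The rise of the members in MN-TRAP over SC, 72 passing as main value, gave 66 under total-count scaling (62 higher and 4 lower) and 71 to 72 when any library was left out. Of all genes, 75.4% passed as main value and 77% under total-count scaling. The alternatives below that leave out the libraries rich in oligodendrocyte RNA or under 5 M counts were chosen after seeing the data. Genotype and age counts within MN-TRAP moved more. With the libraries of 1 fraction alone, 0 members passed at 14 weeks for A315T against Chat bacTRAP, A315T against hTDP-43 WT and hTDP-43 WT against Chat bacTRAP (0%, 0% and 0.00605% of all genes). Limma-voom with sample weights also gave 0 in each (0%, 1.3% and 0% of all genes). Both settings gave 0 for age in both controls, where 0% of all genes passed. For the difference between A315T and Chat bacTRAP, limma-voom gave 0 (0.0849% of all genes). In SC it gave 8 at 14 weeks and 1 at 9 weeks for A315T against Chat bacTRAP (17.7% and 9.96% of all genes). For A315T against hTDP-43 WT it gave 18 and 12 (17.9% and 26.7%). With no filter on low counts, 8, 0 and 10 passed at 14 weeks in MN-TRAP for A315T against Chat bacTRAP, A315T against hTDP-43 WT and hTDP-43 WT against Chat bacTRAP. Of all genes, 6.57%, 4.13% and 10.3% did. RLE scaling gave 10 for hTDP-43 WT against Chat bacTRAP at 14 weeks, where 19.1% of all genes passed. DESeq2 gave 2 for A315T against hTDP-43 WT at 14 weeks (10.4% of all genes) and 1 at 9 weeks.

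Without the 3 control libraries with Lamr1-ps1 reads, 5 passed for A315T against hTDP-43 WT at 14 weeks (15.7% of all genes). In the 9-week comparisons 2, 7 and 4 passed (4.99%, 18.2% and 9.74% of all genes), and 10 for age in hTDP-43 WT (23.5%). For the differences of A315T from Chat bacTRAP and hTDP-43 WT in MN-TRAP over SC, 3 and 6 passed (3.9% and 10.9% of all genes). Without the 3 libraries rich in oligodendrocyte RNA, 2 passed for A315T against hTDP-43 WT at 14 weeks and 0 for the difference between A315T and Chat bacTRAP. Without the 4 libraries under 5 M counts, 12 and 14 passed for age in hTDP-43 WT and Chat bacTRAP.

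Leaving out 1 library at a time gave 5 to 21 members for A315T against Chat bacTRAP, 0 to 5 for A315T against hTDP-43 WT and 11 to 29 for hTDP-43 WT against Chat bacTRAP at 14 weeks. Shares of all genes are not given for these fits. At 9 weeks the same comparisons gave 0 to 2, 0 to 6 and 0 to 6. Age gave 0 to 11 in hTDP-43 WT and 2 to 11 in Chat bacTRAP, and the differences in MN-TRAP over SC gave 0 to 2 (Chat bacTRAP) and 0 to 4 (hTDP-43 WT).

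Replicate numbers are shared between groups, but same-numbered MN-TRAP and SC libraries correlated above 0.1 in their deviations in 9 of 25 pairs (range -0.355 to 0.319), and 6 libraries correlated best with their own number, so the numbers were not taken to pair samples. With the replicate number as a block, 0 members passed for A315T against hTDP-43 WT at 14 weeks. With genotype, age and replicate number together as a block, 0 passed for the difference between A315T and Chat bacTRAP. Under that second block Mrpl23 in MN-TRAP over SC changed to -0.64 (adjusted p by edgeR 0.0516).

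Directions turned for Mrpl9 in A315T against hTDP-43 WT (0.030 under limma-voom, and -1.02 to 0.075 over the fits that leave out a library, the highest without hTDP-43 WT 14-week MN-TRAP replicate 3), for Mrpl3 in MN-TRAP over SC (-0.011 under total-count scaling), and for Mrpl24 (-0.085 to 0.0030 leaving out a library, the highest without Chat bacTRAP 14-week MN-TRAP replicate 1, and 0.028 without the libraries rich in oligodendrocyte RNA). Mrpl24 passed in none of these fits. Under total-count scaling it passed as lower in MN-TRAP (log2 change -0.32, adjusted p by edgeR 0.000508), and Mrps22 lost its call (0.17, adjusted p by edgeR 0.126). Over all settings, the named members kept both the direction and the outcome of the test in 2323 values. With the direction kept, a call was lost in 55 and gained in 23. The direction turned in 5. The causes were not tested, and depth limits Mrpl23 and Mrpl53 most.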
